A study of Saccharomyces cerevisiae with 6 samples.

Results

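The genes described here are 35 genes for fatty acid oxidation, carnitine metabolism and the peroxisome in budding yeast, out of 5365 genes with a named probe on the array. They were taken by name: 11 oxidation enzymes, 3 transporters of the peroxisomal membrane, 4 carnitine genes, 2 transcription factors and 15 PEX genes. Probes were found for 34 of them, 1 each, and OAF1 was not analysed here. The treated cells were Saccharomyces cerevisiae S288C in YPD, a rich glucose medium, at 25 °C, with 5 mM thorium added for 2 h in exponential growth. The reference cells were the same strain in the same medium for 2 h without treatment. Cy5-labelled polyA RNA of treated cells and Cy3-labelled polyA RNA of untreated cells shared each of 3 arrays, from independent biological samples, and every array was read by 2 scans, of high and of low laser power. The dyes were never exchanged, and the labels do not say whether each array had an untreated culture of its own. Values are log2 ratios read as thorium over untreated. That direction is likely, from the order of the channels, but neither it nor the base of the logarithm is stated.

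Budding yeast oxidises fatty acids only in peroxisomes. An acyl-CoA synthetase first attaches coenzyme A, and each turn of the cycle then releases an acetyl unit, which leaves the organelle through the glyoxylate cycle or as a carnitine ester. The transcription factors Oaf1 and Pip2 switch the enzyme genes on in oleate, and glucose, the carbon source of these cultures, represses them. The peroxins, encoded by PEX genes, build the membrane, bring in matrix enzymes and multiply the organelle.

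Of the 34 genes with a probe, 19 had a value in all 3 replicates, 13 in 2, 1 in 1 and 1 in none. Replicate 1 stood apart from the others. Over the 3613 genes measured in every replicate its ratios correlated with those of replicates 2 and 3 at Pearson's r = 0.0949 and 0.0245, against 0.56 between replicates 2 and 3, and over the 19 members at 0.20 and 0.12, against 0.66. These are correlations across genes, which are not independent replicates. Replicate 1 also gave a value for fewer genes, 71.4% of all named genes and 61.8% of the members, while replicates 2 and 3 gave 94.1% and 91.2% of the members. Gaps fell unevenly on the roles, since 12 of 15 PEX genes but 6 of 11 oxidation enzymes and 1 of 4 carnitine genes were measured in replicate 1. Whether having a value depended on the signal in thorium was not tested. Coverage and ratios also differed between sections of the array. In replicate 1 a value was present for 0% of probes in the section of PEX10 and 2.78% in those of PXA1 and PEX5. The share was 8.33% in the section of CAT2 and 19.4% in that of FAA1. Its median was 61.1% over members without a value in replicate 1 and 75% over members with one. The probe numbers gave 192 array sections, not all with a value in replicate 1. Their medians were taken over any number of values, unlike those subtracted below, so some rest on few probes. With the scans of an array averaged, these medians ran from -1.59 to 2.08 in replicate 1. They ran from -1.15 to 1.47 in replicate 2 and from -1.20 to 0.96 in replicate 3. Across the 181 sections with a value in every replicate these medians correlated at 0.66 between replicates 2 and 3, and at -0.33 and -0.32 between replicate 1 and replicates 2 and 3. Section-centred values, from which the section median of each scan was subtracted, are therefore given beside many of the deposited ones. Section medians quoted for a gene are those subtracted, averaged over the scans with its value, so they can lie outside the ranges above.

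No member passed limma's moderated test of the mean ratio against 0 with Benjamini-Hochberg adjustment over all genes, 0 of 19, as for all 3613 genes, where 0% were called higher and 0% lower at an adjusted p of 0.05. At an unadjusted p of 0.05 the count was 4 of 19 members, FAA2, PEX6 and PEX8 above 0 and PEX15 below, beside 13.8% of all genes. The median over the 19 was -0.04, with a median of -0.09 over all genes. Means were above 0 for 9 of 19 members, and for 43.5% of all genes. Members above 0 in all 3 replicates numbered 5 of 19, beside 15.4% of all genes, and members below 0 in all 3 numbered 4 of 19, beside 23.2%. Those above were FAA2, PEX2, PEX6, PEX7 and PEX8, and those below were ECI1, PIP2, PEX3 and PEX15. Section-centred, 6 of 19 were above 0 in all 3, beside 20% of all genes, and 4 of 19 were below, beside 24.4%. In a bulk culture such ratios cannot tell fewer cells with a transcript from less of it per cell.

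**Figure D1:**
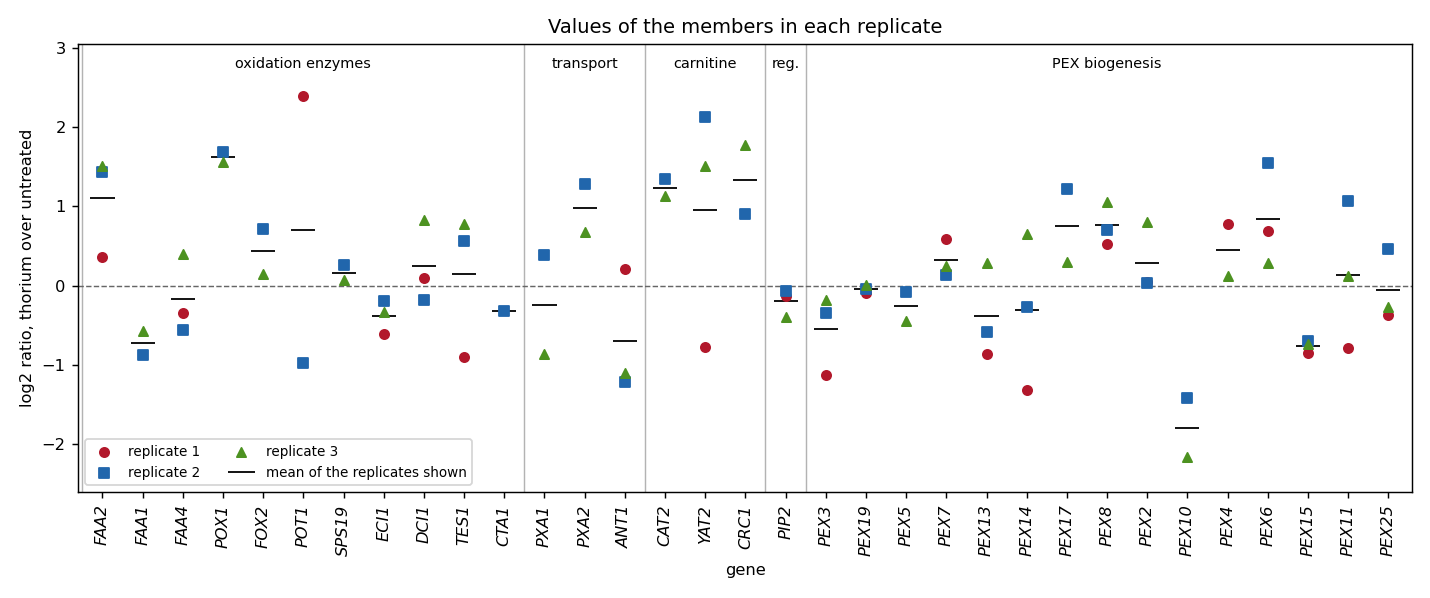
Log2 ratio, thorium over untreated, of the 33 members with a value (x axis, grouped by role; y axis, log2 ratio), with 1 point per replicate and a bar at the mean of the replicates shown. The carnitine genes lie between 0.91 and 2.13 in replicates 2 and 3, while the only carnitine value in replicate 1, of YAT2, is -0.78, and the PEX means lie on both sides of 0.

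The first step, activation, is carried by acyl-CoA synthetases, and the values of the 3 in the list lay on different sides of 0. FAA2 (YER015W), the peroxisomal synthetase of medium-chain fatty acids, had 0.36, 1.44 and 1.51 in replicates 1, 2 and 3. All 3 replicates lay above 0, replicate 1 far nearer to it, and there the scans disagreed, with -0.12 at high and 0.83 at low power. The mean of 1.10 ± 0.65 (SD, n = 3), a fold of 2.15, did not pass (limma adjusted p = 0.299). Without replicate 1 the mean was 1.48 and FAA2 was called higher (limma adjusted p = 0.0353), as were 2.24% of all genes, with 3.04% called lower. Over the 4790 genes measured in replicates 2 and 3 the same mean was not called (limma adjusted p = 0.0549), nor was it after section-centring of those replicates (limma adjusted p = 0.123). The section medians at FAA2 were 0.16, 0.08 and 0.69, and section-centred it stood at 0.79 ± 0.58 (SD, n = 3).

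FAA1 and FAA4 encode the long-chain synthetases that serve most uptake of fatty acids from the medium. FAA4 (YMR246W) had -0.35, -0.56 and 0.40, so its replicates straddled 0, with a mean of -0.17 ± 0.51 (SD, n = 3; limma adjusted p = 0.826). Its value in replicate 3 came from the high power scan alone. FAA1 (YOR317W) had no value in replicate 1 and -0.88 and -0.58 in replicates 2 and 3, both below 0. Its section medians there were -0.51 and -0.49, and the section-centred mean was -0.23. Within each array FAA2 exceeded FAA4 by 0.71, 2.00 and 1.11, a mean difference of 1.27 ± 0.66 (SD, n = 3), and FAA2 exceeded FAA1 by 2.32 and 2.09 in the 2 replicates that had both. Section-centred, the excess over FAA4 was 0.11, 1.86 and 0.35. Signs are thus the same in each array under both versions, but 3 replicates allow no exact 2-sided sign-flip p below 0.25, and the probes of related synthetases may share signal.

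The cycle itself has 3 enzymes, and none was measured in every replicate. POX1 (YGL205W), the acyl-CoA oxidase that opens the cycle, had 1.68 and 1.57 in replicates 2 and 3, each from the high power scan alone. Both values were close together and correspond to a fold of 3.08. In the high power scans the median of its section was 1.68 in replicate 2, the same as POX1 itself, and 0.36 in replicate 3. Section-centred, the mean of POX1 was 0.60. Over the 4790 genes measured in both replicates POX1 was called higher in a setting without replicate 1 (limma adjusted p = 0.0498), where 0.939% of genes were called higher and 0.668% lower. After section-centring the adjusted p was 0.356.

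FOX2 (YKR009C), the multifunctional enzyme of the middle steps, had 0.72 and 0.14 in replicates 2 and 3. Behind both values stand scans that differ in sign. They read 1.89 at high and -0.45 at low power in replicate 2, and 0.35 and -0.06 in replicate 3. Section-centred, FOX2 had 0.49 and 0.55. POT1 (YIL160C), the thiolase that ends each turn, had 2.39 in replicate 1 and -0.98 in replicate 2, all from high power scans. Its section medians were 1.62 and -0.995, of the same opposite signs, and section-centred values averaged 0.39.

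Auxiliary enzymes, which handle unsaturated fatty acids, thioesters and the peroxide made by the oxidase, had means from -0.38 to 0.25 as deposited. ECI1 (YLR284C), the enoyl-CoA isomerase, had -0.61, -0.19 and -0.33, with all 3 below 0 and a mean of -0.38 ± 0.21 (SD, n = 3; limma adjusted p = 0.554). Its relative DCI1 (YOR180C) had 0.10, -0.18 and 0.82, on both sides of 0, with a mean of 0.25 ± 0.52 (SD, n = 3; limma adjusted p = 0.743), and section-centred it was above 0 in every replicate, at 0.48 ± 0.33 (SD, n = 3). ECI1 minus DCI1 was -0.71, -0.01 and -1.16 in the 3 replicates, below 0 each time although hardly so in replicate 2. In replicates 2 and 3 DCI1 was read at high power alone, and ECI1 in both scans. TES1 (YJR019C), the peroxisomal acyl-CoA thioesterase, had -0.89, 0.56 and 0.78, with replicate 1 opposed to the others. The section medians of TES1 were -1.20, 0.14 and 0.84, of the same sign as its values in each replicate, and section-centred the mean was 0.22 ± 0.25 (SD, n = 3), beside 0.15 ± 0.91 as deposited. SPS19 (YNL202W), the dienoyl-CoA reductase, had 0.26 and 0.07 in replicates 2 and 3, but -0.33 and -0.12 after section-centring, so its sign turned in both. CTA1 (YDR256C), the peroxisomal catalase, had a single value, -0.32 in replicate 2, which was 0.55 after section-centring.

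Among transporters of the peroxisomal membrane, PXA1 and PXA2 form the importer of long-chain acyl-CoA, and ANT1 carries adenine nucleotides for the synthetase inside. ANT1 (YPR128C) had 0.21, -1.22 and -1.10, with replicates 2 and 3 well below 0 and replicate 1 above it. In replicate 1 the scans differed in sign, -0.09 at high and 0.50 at low power, and section-centred ANT1 had -0.06 there. Its mean was -0.70 ± 0.79 (SD, n = 3; limma adjusted p = 0.436), and the section medians of 0.27, -1.02 and -0.62 had the same signs. Section-centred, ANT1 stood at -0.25 ± 0.21 (SD, n = 3). PXA2 (YKL188C) had 1.28 and 0.67 in replicates 2 and 3. PXA1 (YPL147W) had 0.38 and -0.86 there, each from the high power scan alone. Section-centred, the mean of PXA1 was 0.57, against -0.24 as deposited. The scans of PXA2 in replicate 2 read 2.27 at high and 0.28 at low power. PXA2 minus PXA1 was 0.90 and 1.54 as deposited but -0.77 and 0.58 after section-centring, so the order of these partners in replicate 2 turned. These differences set both scans of PXA2 against the high power scan of PXA1, so they mix gene with scan power.

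Over replicates 2 and 3, a setting chosen after seeing the data, the 5 groups held from 1 to 14 measured genes. Medians of so few genes are not alike in precision. Of these groups the carnitine genes, 3 of them measured, had the median farthest from 0, 1.34. They serve the shuttle that moves acetyl units into mitochondria: CAT2 encodes the carnitine acetyltransferase of peroxisomes and mitochondria, YAT2 and YAT1 encode others outside the peroxisome, and CRC1 encodes the carnitine carrier of the inner mitochondrial membrane. CAT2 (YML042W) had 1.34 and 1.14, CRC1 (YOR100C) had 0.91 and 1.77, and YAT2 (YER024W) had 2.13 and 1.505. All 6 values lay above 0, and their means of 1.24, 1.34 and 1.82 stood beside a median of -0.06 over the 4790 genes measured in both replicates. As a count this was 3 of 3 above 0 in both replicates, beside 32.3% of all genes, with 39.2% below 0 in both. YAT1 (YAR035W) had no value in any scan.

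Section-centred means over replicates 2 and 3 were 0.93 for CAT2, 1.31 for CRC1 and 1.71 for YAT2, and again 3 of 3 lay above 0 in both replicates, beside 32.1% of all genes. The scans of CAT2 read 1.11 and 1.58 in replicate 2 and 1.18 and 1.09 in replicate 3, high power first. For YAT2 the scans of replicate 3 read 1.48 and 1.53. Those of CRC1 in replicate 3 lay farther apart, at 2.60 for high and 0.94 for low power. In replicate 2 the values of YAT2 and CRC1 came from the high power scan alone.

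Replicate 1 read otherwise in its 1 carnitine value. YAT2 had -0.78 there, from the high power scan alone, and CAT2 and CRC1 had no value. With all 3 replicates YAT2 averaged 0.95 ± 1.53 (SD, n = 3; limma adjusted p = 0.475). Section-centred, it still had -0.74 in replicate 1 and averaged 0.90 ± 1.52 (SD, n = 3; limma adjusted p = 0.365). As deposited, without replicate 1, its mean was 1.82 and it was called higher (limma adjusted p = 0.0254). In that fit 2.24% of all genes were called higher and 3.04% lower. Over the 4790 genes measured in replicates 2 and 3, 0.939% were called higher and 0.668% lower. There YAT2 was called higher as well (limma adjusted p = 0.0487). After section-centring of replicates 2 and 3 its adjusted p was 0.0952. In that setting limma called 0 of all genes, and 19.5% passed at an unadjusted p of 0.05. CAT2 and CRC1 did not pass over replicates 2 and 3 (limma adjusted p = 0.0625 and 0.0660). In the section of CAT2 only 8.33% of probes had a value in replicate 1, and in that of CRC1 66.7% had one.

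**Figure D2:**
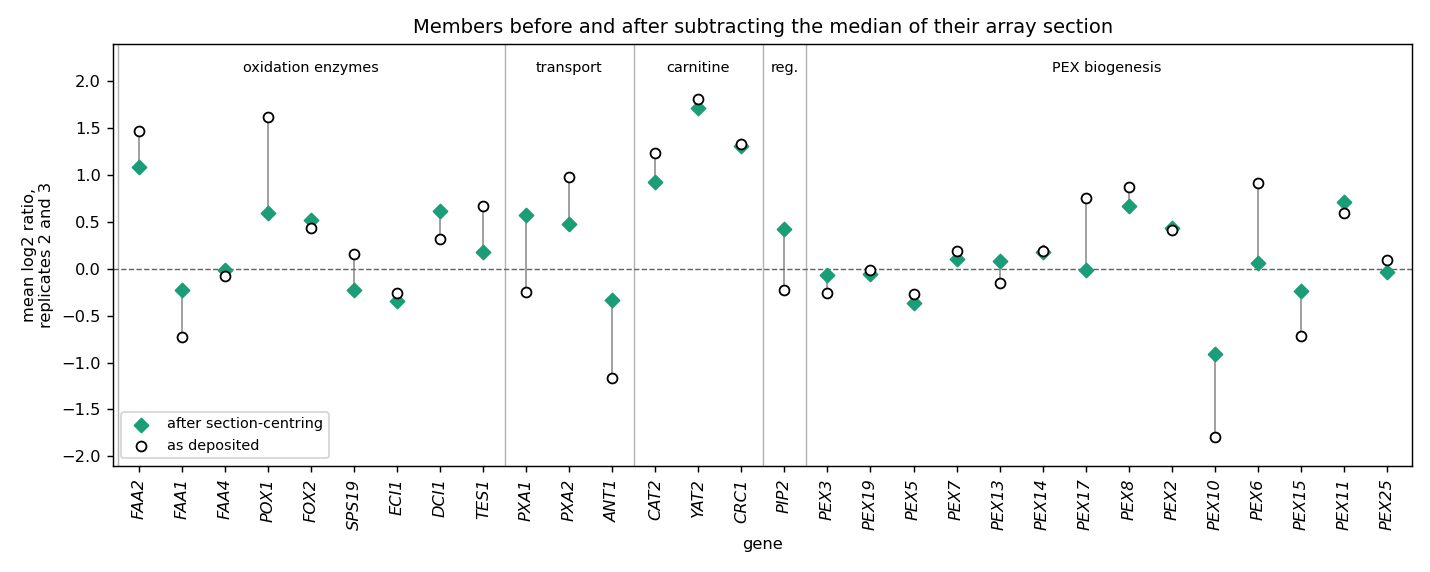
Mean log2 ratio over replicates 2 and 3 (y axis) of the 30 members measured in both (x axis, grouped by role), as deposited (open circles) and after subtracting the median of the probe's array section (diamonds), with a line joining the values of a gene. Section-centred, CAT2, CRC1 and YAT2 lie between 0.93 and 1.71, while POX1 moves to 0.60, against 1.62 as deposited, and PEX10 to -0.91, against -1.79.

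PIP2 (YOR363C), which encodes the oleate-responsive partner of Oaf1, had -0.13, -0.07 and -0.39. All 3 were slightly below 0, with a mean of -0.20 ± 0.17 (SD, n = 3; limma adjusted p = 0.766). Its section lay lower still, with medians of -0.34, -0.62 and -0.68, and section-centred PIP2 was above 0 in every replicate, at 0.35 ± 0.18 (SD, n = 3). The sign for this regulator thus differed between deposited and section-centred values.

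The PEX genes showed no shared direction. Of the 11 measured in all replicates 5 had a mean above 0 and 6 below, 4 were above 0 in every replicate and 2 below, and the median was -0.04. Their means ran from -0.76 to 0.84.

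Membrane assembly begins with PEX3, the membrane anchor, and PEX19, the soluble receptor for membrane proteins. PEX19 (YDL065C) had -0.09, -0.04 and 0.01, the closest to 0 among the 11, with a mean of -0.04 ± 0.05 (SD, n = 3). Its partner PEX3 (YDR329C) had -1.12, -0.35 and -0.18, all below 0, most of it in replicate 1, with a mean of -0.55 ± 0.50 (SD, n = 3; limma adjusted p = 0.460). Section-centred, PEX3 stood at -0.31 ± 0.43 (SD, n = 3) and was above 0 in replicate 3, at 0.0115, while PEX19 stood at -0.23 ± 0.32 (SD, n = 3). Matrix enzymes are then recognised in the cytosol by the receptors PEX5 and PEX7, which read different targeting signals. PEX7 (YDR142C) had 0.58, 0.14 and 0.24, all above 0, with a mean of 0.32 ± 0.23 (SD, n = 3; limma adjusted p = 0.614). PEX5 (YDR244W) had -0.08 and -0.45 in replicates 2 and 3, and no value in replicate 1. Its scans in replicate 2 differed in sign, -0.54 at high and 0.39 at low power.

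At the membrane the receptors dock on PEX13, PEX14 and PEX17. PEX13 (YLR191W) had -0.86, -0.58 and 0.29, and PEX14 (YGL153W) had -1.31, -0.27 and 0.65. In both genes the values lay in the order of the section medians, which were -0.91, -0.47 and 0.00 at PEX13 and -0.995, -0.41 and 0.43 at PEX14. Section-centred means were close to 0, at 0.07 ± 0.20 for PEX13 and 0.01 ± 0.29 for PEX14 (SD, n = 3). PEX17 (YNL214W) had 1.22 and 0.29 in replicates 2 and 3, and its section had 1.20 and 0.33, which left a section-centred mean of -0.01. The docking genes thus lay close to the medians of their sections on average.

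Like PEX6 and PEX7, PEX8 lay above 0 in every scan. It encodes the intraperoxisomal peroxin that links docking proteins with the RING proteins. PEX8 (YGR077C) had 0.53, 0.71 and 1.05, with its 6 scans between 0.37 and 1.14. Its mean was 0.76 ± 0.27 (SD, n = 3), a fold of 1.69, and section-centred it stood at 0.73 ± 0.13 (SD, n = 3), yet it did not pass (limma adjusted p = 0.326). Of the RING proteins, which ubiquitinate the receptors, PEX2 (YJL210W) had 0.04, 0.03 and 0.80, all above 0 but only replicate 3 clearly. In replicate 1 its scans differed in sign, -0.16 at high and 0.24 at low power. The section-centred mean of PEX2 was 0.39 ± 0.11 (SD, n = 3).

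PEX10 (YDR265W), the other RING gene measured, had the lowest mean of the members, if the ratio is thorium over untreated. It had -1.42 and -2.16 in replicates 2 and 3, each from the high power scan alone, a fold of 0.289. No probe of its section had a value in replicate 1. PEX10 was called lower over the 4790 genes measured in replicates 2 and 3 (limma adjusted p = 0.0498). In this setting, chosen after seeing the data, 0.668% of genes were called lower and 0.939% higher. The section medians were -0.90 and -0.85, and section-centred the mean was -0.91 with an adjusted p of 0.167.

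Receptors leave the membrane with the help of PEX4, a ubiquitin-conjugating enzyme, PEX6, an AAA ATPase, and PEX15, its membrane anchor. PEX6 and its own anchor PEX15 lay on opposite sides of 0 in every replicate as deposited. PEX6 (YNL329C) had 0.69, 1.55 and 0.28, a mean of 0.84 ± 0.65 (SD, n = 3; limma adjusted p = 0.349), and PEX15 (YOL044W) had -0.86, -0.69 and -0.74, a mean of -0.76 ± 0.08 (SD, n = 3; limma adjusted p = 0.309). The replicates of PEX15 spread less than those of any other member tested except PEX19. Section-centred, PEX6 stood at 0.30 ± 0.55 and PEX15 at -0.37 ± 0.26 (SD, n = 3), and in replicate 3 both were then below 0, at -0.30 and -0.11. PEX4 (YGR133W) had 0.78 and 0.12 in replicates 1 and 3, from sections with medians of 0.15 and -1.10.

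PEX11 and PEX25, relatives that promote proliferation of the organelle, changed sign between arrays. PEX11 (YOL147C) had -0.79, 1.07 and 0.12, with both scans of replicate 1 below 0 and both of replicate 2 above it. PEX25 (YPL112C) had -0.37, 0.46 and -0.26. Their means were 0.13 ± 0.93 and -0.06 ± 0.45 (SD, n = 3; limma adjusted p = 0.897 and 0.940). In oleate PEX11 is switched on together with the oxidation enzymes; here it did not stay on 1 side of 0.

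**Figure D3:**
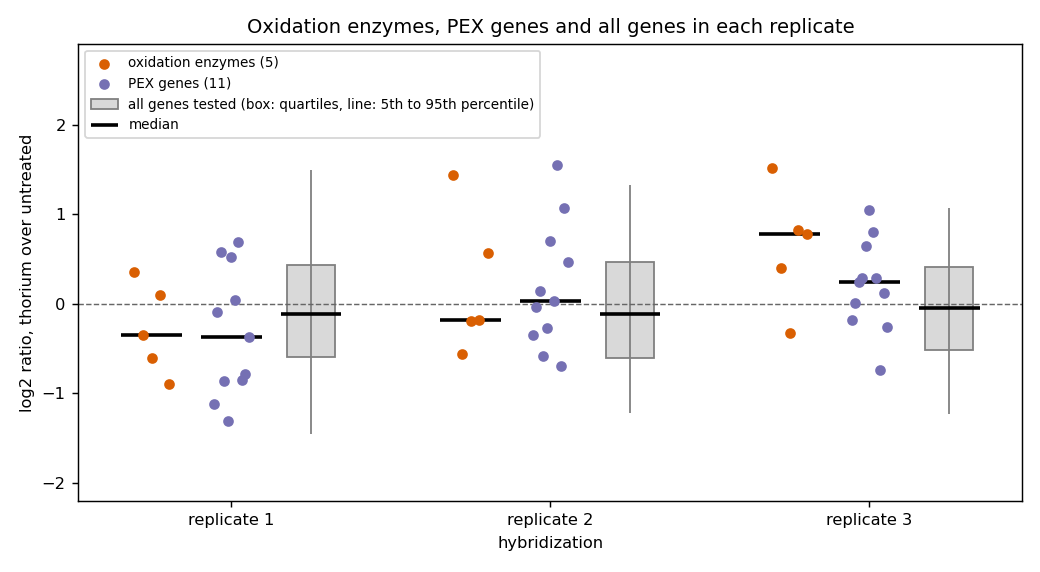
Log2 ratio, thorium over untreated (y axis), in each replicate for the 5 oxidation enzymes and the 11 PEX genes measured in all 3, with all 3613 genes tested beside them (box, quartiles; line, 5th to 95th percentile; black bars, medians). The points of both gene groups overlap in every replicate, and the oxidation median is farthest above the PEX median in replicate 3, at 0.78 against 0.24.

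Oxidation enzymes and PEX biogenesis genes were then compared within each array. The 5 oxidation enzymes measured in every replicate (FAA2, FAA4, ECI1, DCI1 and TES1) had medians of -0.35, -0.18 and 0.78 in replicates 1, 2 and 3, and the 11 PEX genes had -0.37, 0.03 and 0.24. The medians over all genes tested were -0.11, -0.12 and -0.05. Oxidation minus PEX was thus 0.0246, -0.21 and 0.54, a mean of 0.12 ± 0.38 (SD, n = 3), so that the difference was smaller than its spread and changed sign between arrays. The ranges overlapped as well, with means of -0.38 to 1.10 for oxidation enzymes and -0.76 to 0.84 for PEX genes. No p is given, because genes are not replicates and the members were chosen with earlier results known.

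Over replicates 2 and 3 more members could be read, 9 oxidation enzymes and 14 PEX genes. The oxidation medians were 0.26 and 0.40, the PEX medians -0.003 and 0.18, and the differences 0.26 and 0.22. Of the 9 oxidation enzymes 5 were above 0 in both replicates and 2 below, and of the 14 PEX genes 6 were above and 4 below, beside 32.3% above and 39.2% below of all genes. Section-centred, the counts above and below were 3 and 3 of the oxidation enzymes and 5 and 4 of the PEX genes, beside 32.1% and 33.5% of all genes. Section-centring also turned the difference of medians in replicate 2 to -0.0248, with 0.47 in replicate 3. Over the 5 and 11 genes with all replicates it gave 0.15, 0.24 and 0.28, a mean of 0.22 ± 0.07 (SD, n = 3). The difference of medians therefore varied with the genes measured and with section-centring, and the values of both groups overlapped throughout.

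**Figure D4:**
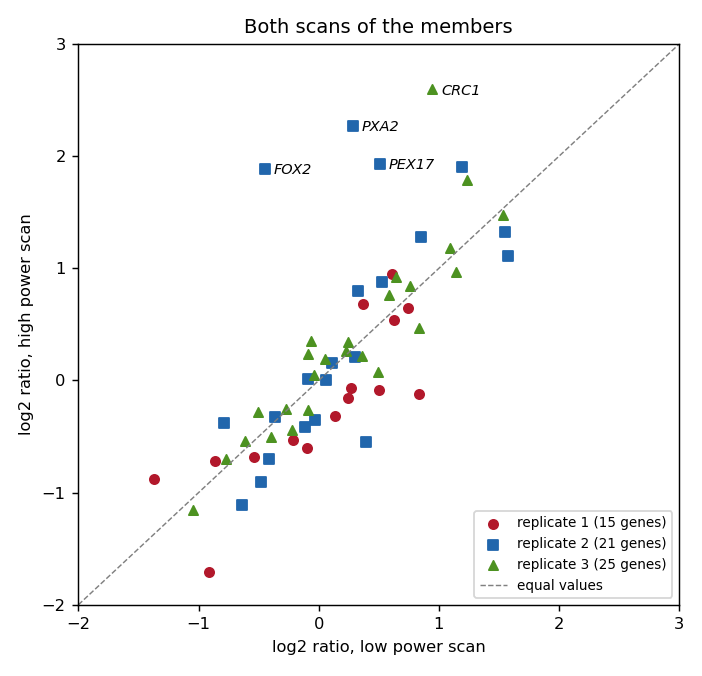
High power (y axis) against low power (x axis) log2 ratio of each member with both scans, 15 genes in replicate 1, 21 in replicate 2 and 25 in replicate 3, with a dashed line of equal values. Points lie on both sides of the line. FOX2, PXA2 and PEX17 in replicate 2 and CRC1 in replicate 3 lie farthest above it, with gaps of 2.34, 1.99, 1.42 and 1.65.

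The 2 scans of an array often gave different ratios. In some replicate they differed in sign for FAA2, FOX2, SPS19, DCI1, ANT1, PEX19, PEX5 and PEX2. The median absolute gap between scans was 0.35, 0.40 and 0.14 over members in replicates 1, 2 and 3, and 0.35, 0.46 and 0.11 over all named genes. The widest gaps, of FOX2, PXA2, PEX17 and CRC1, all had the higher ratio at high power. Next came FAA2 in replicate 1 and PEX5 in replicate 2, at -0.95 and -0.93, high minus low. The median of high minus low was -0.31, 0.04 and 0.08 over members in replicates 1, 2 and 3. Over all named genes it was -0.23, -0.13 and 0.01. A low power value was missing where the high power scan gave one for 6, 11 and 6 members in the 3 replicates, POX1, PEX10, POT1 and CTA1 among them, so values read from high power alone have no second reading.

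Other genes of the pathway were described in 3 further lists. Since limma called 0 of all 3613 genes tested, calls could not set these lists apart. In the list of other peroxins and division proteins, 8 of 16 genes with a probe were measured in all replicates, with a median of 0.03, 1 above 0 and 1 below 0 in every replicate, beside 15.4% and 23.2% of all genes. Among those 8 the means farthest from 0 were of PEX22, the membrane anchor of Pex4, at 0.41 ± 0.52, FIS1, a membrane adaptor of organelle division, at -0.35 ± 0.89, PEX9, an import receptor, at 0.26 ± 0.23, and PEX32, an integral membrane peroxin, at -0.21 ± 0.11 (SD, n = 3). Section-centring turned the sign of FIS1, to 0.11, and of PEX9, to -0.29. Of the genes with values in 2 replicates, PEX31 lay farther out, at -1.26 and -1.62 in replicates 2 and 3 and a section-centred mean of -0.45, and is named here after its values were seen.

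In the list of other peroxisomal enzymes and acyl-CoA synthetases, 11 of 16 genes were measured, with a median of -0.23. Of these, 2 were above 0 and 6 below 0 in every replicate, beside 15.4% and 23.2% of all genes. Section-centred, the median was -0.04 and the counts were 3 above and 4 below, beside 20% and 24.4%. AAT2, an aspartate aminotransferase, had -1.58, -0.79 and -1.18, and FAT1, which activates and takes up very long-chain fatty acids, had -1.29, -0.68 and -1.18. Their means were -1.18 ± 0.40 and -1.05 ± 0.33 (SD, n = 3; limma adjusted p = 0.271 and 0.291), and section-centred they were -0.51 and -0.80. CIT2, the peroxisomal citrate synthase, averaged -0.88 ± 0.88, and PNC1, a nicotinamidase, -0.65 ± 0.25 (SD, n = 3), with -0.68 and -0.23 after section-centring. FAT1 and FAA2 both activate fatty acids, and they lay on opposite sides of 0 in every replicate as deposited.

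Among regulators and the carnitine permease, 5 of 7 genes were measured, with a median of 0.16. CAT8, an activator of genes for growth without glucose, had 0.68, 0.86 and 1.36, all above 0, with a mean of 0.97 ± 0.35 (SD, n = 3; limma adjusted p = 0.299) and 0.35 after section-centring. SNF4, the activating subunit of the Snf1 kinase that lifts glucose repression, had -0.72, -0.80 and -0.86, all below 0, with a mean of -0.79 ± 0.07 (SD, n = 3; limma adjusted p = 0.299). MIG1, the glucose repressor, averaged 0.77 ± 0.72, and ADR1, an activator of oxidation genes, had -1.70, -0.22 and 1.20, so its replicates spanned 0 more widely than those of the other 4. AGP2, which takes up carnitine, had 0.39, -0.18 and 0.27, a mean of 0.16 ± 0.30 (SD, n = 3), and is named after its values were seen. In replicates 2 and 3, where the carnitine genes inside the cell read high, AGP2 lay on both sides of 0. In replicate 1 AGP2 was above 0 and YAT2 below it.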

How the data were processed

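The authors deposited 1 table of signed values per probe and scan, read here as log2 ratios. Per the labels, LOWESS normalization drew on spots flagged 0. The scanner, its software and any background correction are not given in the sources used. LOWESS centring hides any change shared by most genes. How bright a spot was is not known from ratios, and the 3 arrays limit the precision.

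Probes were named from the platform annotation (5513 of 6912; 1399 are unnamed here), and 5360 of 5365 genes matched the RefSeq table of assembly R64. Values were averaged over a gene's probes and then over the available scans of an array. The 3613 genes measured in every replicate were tested against 0 with limma 3.58.1 in R 4.3.3 (lmFit, eBayes), 2-sided, with Benjamini-Hochberg adjustment over all of them and a threshold of 0.05. The procedure was tested on simulated data, with independent normal values for each gene. These held no section effects and no replicate apart from the others, so the simulation does not cover either feature. Section-centring subtracts in each scan the median of the probe's section, with at least 5 values, where sections are read from the probe number (block, row) without a layout. Every member with a value is named. Of other lists, up to 4 genes measured in every replicate, with the largest absolute mean, are named, AGP2 and PEX31 being additions chosen after their values were seen. The members, lists and alternatives were chosen with earlier results of these data known. Sequence features were not analysed here.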

Additional observations from a re-analysis of the deposited data

How the results depend on the processing

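With 3 arrays, no exchanged dyes and replicate 1 apart from the others, the precision is limited. The number of genes called by limma was 0 higher and 0 lower under every setting tried that keeps all 3 replicates, the fit of all 6 scans with the replicate block included. Leaving out 1 replicate gave 0 to 81 called higher and 0 to 110 lower, all calls coming without replicate 1. Settings chosen after seeing the data gave 45 higher and 32 lower over the genes measured in replicates 2 and 3, and 0 of either after section-centring. No paired analysis was possible beyond this block because there is 1 group.

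Genes above 0 in every replicate used numbered 765 to 1111 with 1 replicate left out, 1545 over the genes in replicates 2 and 3, 1536 after section-centring of these, and 291 over genes with both scans of all replicates. Genes below 0 numbered 1095 to 1444, 1876 and 1603 in the first 3 of these settings and 491 in the low power scans. Fewer replicates or genes set these counts by construction. The medians of oxidation enzymes and PEX genes, and their difference, moved by less than their replicate SD under every alternative, but these SDs are wide. With 1 replicate left out the oxidation median ran from -0.17 to 0.32, the PEX median from -0.29 to 0.19 and the difference from -0.09 to 0.28.

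No member passed the threshold with all replicates. The values below are those of tested members whose sign changed, and the cause was not tested. After section-centring FAA4 stood at 0.0205, PIP2 at 0.35, PEX13 at 0.0737, PEX14 at 0.0139 and PEX25 at 0.0379, also over genes with at least 2 replicates, and over replicates 2 and 3 PIP2 stood at 0.42, PEX13 at 0.0857 and PEX14 at 0.18. PEX14 was 0.19 in replicates 2 and 3 as deposited and 0.0391 with array weights, and PEX25 was 0.10 and 0.0231. PEX19 was 0.00206 in the low power scans and 0.0352 with scans centred on their medians, where PEX25 was 0.0385. With 1 replicate left out FAA4 ran from -0.45 to 0.0277, DCI1 from -0.0384 to 0.46, TES1 from -0.17 to 0.67, PEX14 from -0.79 to 0.19, PEX11 from -0.33 to 0.60 and PEX25 from -0.32 to 0.10.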
